A study of Mus musculus with 6 samples.

Results

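The genes described here are 10 markers of macrophages, the resident phagocytes of the dorsal root ganglion (DRG). They were taken by symbol, and all 10 were found among the 48401 gene symbols listed for each library. Bulk RNA sequencing was carried out on L4/5 DRG of male C57BL/6J mice aged 8 weeks that had received an intrathecal injection of siRNA. One group of 3 libraries came from mice given siCLAP, which targets the long intergenic noncoding RNA CLAP, and the other group of 3 from mice given siNC, taken here as the control siRNA. Total expected counts ranged from 21386768 to 46317735 per library. The sources used here do not state whether each library came from separate mice or how long after injection tissue was taken, and every p-value reflects the spread among these 6 libraries, which may be technical. CLAP has no row of that name here and was not analysed, which leaves the knockdown unchecked. The tissue label was checked with 8 sensory neuron genes, which summed to 13700 to 14000 TPM in siCLAP and 13000 to 13300 TPM in siNC, and 8 satellite glia genes, at 4460 to 4920 TPM in siCLAP and 4130 to 4520 TPM in siNC. The 10 macrophage markers together summed to 96.5, 146 and 66.4 TPM in siCLAP, against 119, 73.6 and 130 TPM in siNC.

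Ganglion macrophages lie among the sensory neuron cell bodies and their satellite glia and in the surrounding sheath. Their survival depends on signalling through the receptor Csf1r, whose ligands are Csf1 and Il34, and they clear debris through lysosomes and scavenger receptors. They are also a main source of C1q, the recognition protein of the classical complement pathway, which is assembled from 3 chains encoded by C1qa, C1qb and C1qc. In mice, macrophages gather in the ganglion after peripheral nerve injury, with Csf1 made by the injured neurons as one of the signals. In bulk tissue, fewer macrophages and less RNA per macrophage cannot be told apart.

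All 10 markers were detected in every library, at low levels. On the TPM scale, which corrects for gene length, Lyz2 was the most abundant at a mean of 42.0 ± 13.9 TPM (SD over 6 libraries), followed by C1qa at 17.1 ± 5.76, C1qb at 15.3 ± 5.05 and C1qc at 12.2 ± 4.33 TPM. Csf1r followed at 6.84 ± 1.40 TPM, and Cd68, Mrc1, Aif1, Cx3cr1 and Adgre1 lay between 3.70 and 1.07 TPM. Lyz2, C1qa, C1qb, C1qc, Csf1r and Cd68 stood in this order in each of the 6 libraries. The neighbours Cd68 and Mrc1 (Cd68 higher in 4 of 6 libraries) and Cx3cr1 and Adgre1 (Cx3cr1 higher in 3 of 6) did not differ beyond their spread, and Aif1 was above Cx3cr1 in 5 of 6. Across libraries the ranges of neighbouring genes overlapped, except between Csf1r (lowest 5.43 TPM) and Cd68 (highest 5.10 TPM). Expected counts went down to 18.2 for Aif1 and 18.5 for Adgre1. A count of 18 has an exact 95% Poisson interval of 10.7 to 28.4, which covers counting error only.

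**Figure D1:**
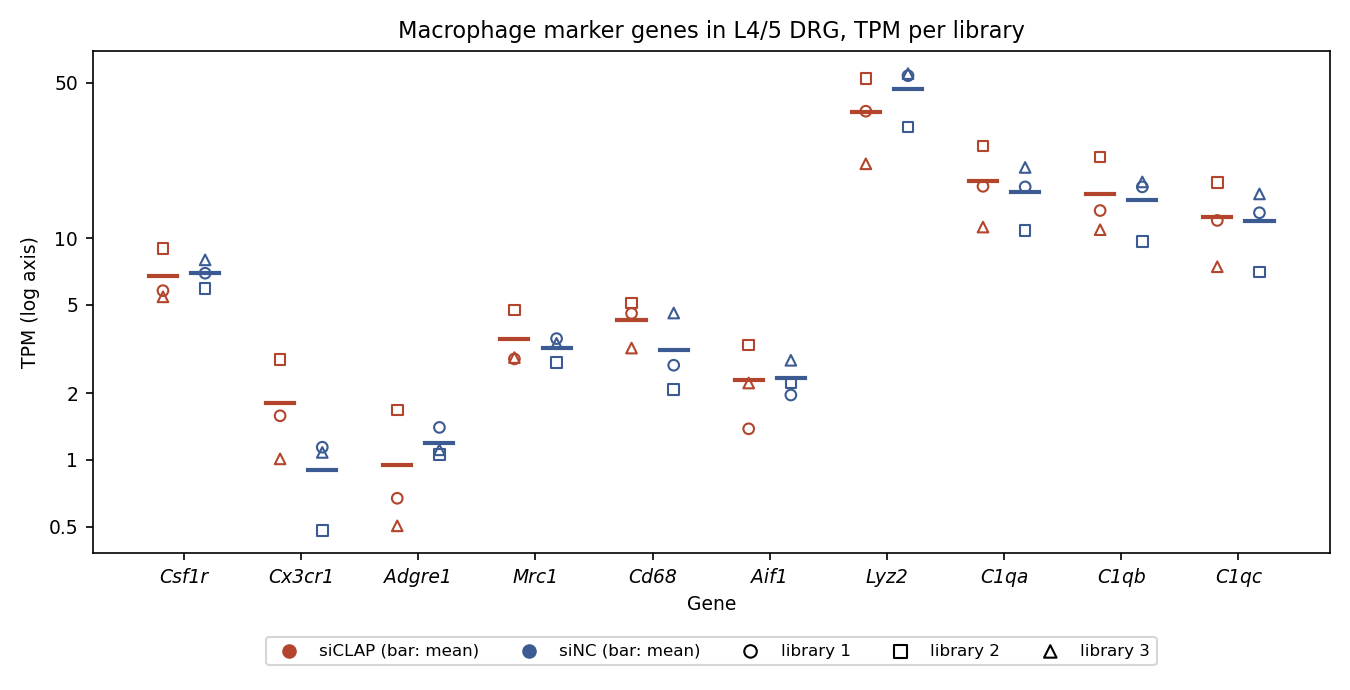
TPM (log axis) of the 10 macrophage markers in the 3 siCLAP libraries (left of each pair) and the 3 siNC libraries (right), with a bar at each group mean. The groups overlap for all 10 genes, and siCLAP-2 (square) is the highest library for 9 of them.

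The promoter windows of 7 markers were in the reference table, and those of Aif1, C1qb, C1qc, Cd68 and Mrc1 are shown because each holds a copy of the GAGGAA core bound by the myeloid transcription factor Spi1 (PU.1). Each window runs from 250 bases before the gene start to 50 after it (RefSeq, GRCm38.p6), 5′ to 3′ on the strand of the gene. Capitals mark GAGGAA, the longer GAGGAAGT that contains it, the interferon-type element made of 2 copies of GAAA separated by 2 bases, and the AP-1 element TGACTCA, searched on both strands, so that a match on the opposite strand reads as the reverse complement.
Aif1, chr17:35176003-35176302, minus strand: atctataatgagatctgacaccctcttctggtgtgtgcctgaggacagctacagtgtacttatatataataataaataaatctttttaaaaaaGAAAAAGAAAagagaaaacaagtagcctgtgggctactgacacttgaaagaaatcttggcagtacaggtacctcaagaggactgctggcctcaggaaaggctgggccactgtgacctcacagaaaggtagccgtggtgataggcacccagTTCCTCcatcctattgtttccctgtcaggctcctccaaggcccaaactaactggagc
C1qb, chr4:136886151-136886450, minus strand: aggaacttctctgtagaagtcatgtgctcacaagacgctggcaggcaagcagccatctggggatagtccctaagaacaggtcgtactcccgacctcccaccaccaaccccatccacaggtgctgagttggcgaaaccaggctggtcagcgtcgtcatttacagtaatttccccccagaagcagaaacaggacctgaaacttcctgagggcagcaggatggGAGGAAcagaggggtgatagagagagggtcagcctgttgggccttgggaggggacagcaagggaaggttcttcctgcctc
C1qc, chr4:136892865-136893164, minus strand: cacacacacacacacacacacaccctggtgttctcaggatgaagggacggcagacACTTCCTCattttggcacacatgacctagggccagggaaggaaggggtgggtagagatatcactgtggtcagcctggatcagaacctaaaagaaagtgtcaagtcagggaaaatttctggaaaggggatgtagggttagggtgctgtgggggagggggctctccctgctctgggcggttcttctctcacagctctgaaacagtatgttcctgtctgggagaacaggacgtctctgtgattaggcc
Cd68, chr11:69666121-69666420, minus strand: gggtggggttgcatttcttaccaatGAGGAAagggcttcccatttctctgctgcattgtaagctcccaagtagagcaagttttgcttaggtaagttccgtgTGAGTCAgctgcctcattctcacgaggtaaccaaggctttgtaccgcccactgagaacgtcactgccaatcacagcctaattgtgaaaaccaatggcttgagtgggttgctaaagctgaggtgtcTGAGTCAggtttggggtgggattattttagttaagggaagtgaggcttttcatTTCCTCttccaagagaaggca
Mrc1, chr2:14229164-14229463, plus strand: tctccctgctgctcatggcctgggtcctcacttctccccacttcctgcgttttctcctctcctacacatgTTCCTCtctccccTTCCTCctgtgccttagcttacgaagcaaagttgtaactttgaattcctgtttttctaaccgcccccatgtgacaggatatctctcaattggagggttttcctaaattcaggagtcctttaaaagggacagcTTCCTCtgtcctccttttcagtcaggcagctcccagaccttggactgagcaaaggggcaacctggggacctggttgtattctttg
GAGGAA was present in these 5 of the 7 windows, and in 28.3% of 32851 RefSeq promoter windows of the same length. GAGGAAGT was present only in the C1qc window among the 7 and in 3.2% of all windows, the paired GAAA only in that of Aif1 (3.44% of all) and TGACTCA only in that of Cd68 (5.2% of all), where it occurs at 2 places. The GAGGAA match nearest the gene start begins 30 bases before it in C1qb and 7 bases before it in Aif1, there on the opposite strand. The Lyz2 and Cx3cr1 windows hold none of these letters. These are matches of letters, not measured binding sites.

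The comparison of siCLAP with siNC asked whether macrophage markers differ in the ganglion after siRNA against CLAP. None of the 10 passed edgeR's quasi-likelihood test at a Benjamini-Hochberg adjusted p under 0.05, and 1, Cx3cr1, had an unadjusted p under 0.05. Over all 19141 genes tested, those that averaged 1 TPM or more, 0.293% passed (0.0731% higher and 0.219% lower in siCLAP) and 17.0% had an unadjusted p under 0.05. DESeq2 called 0 of the 6 markers to which it gave an adjusted p. Estimates were positive for 6 markers and negative for 4, with a median log2 fold change of 0.11, beside −0.002 over all genes tested. The groups overlapped for all 10 markers, whereas they did not overlap for 21.5% of all genes tested.

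**Figure D2:**
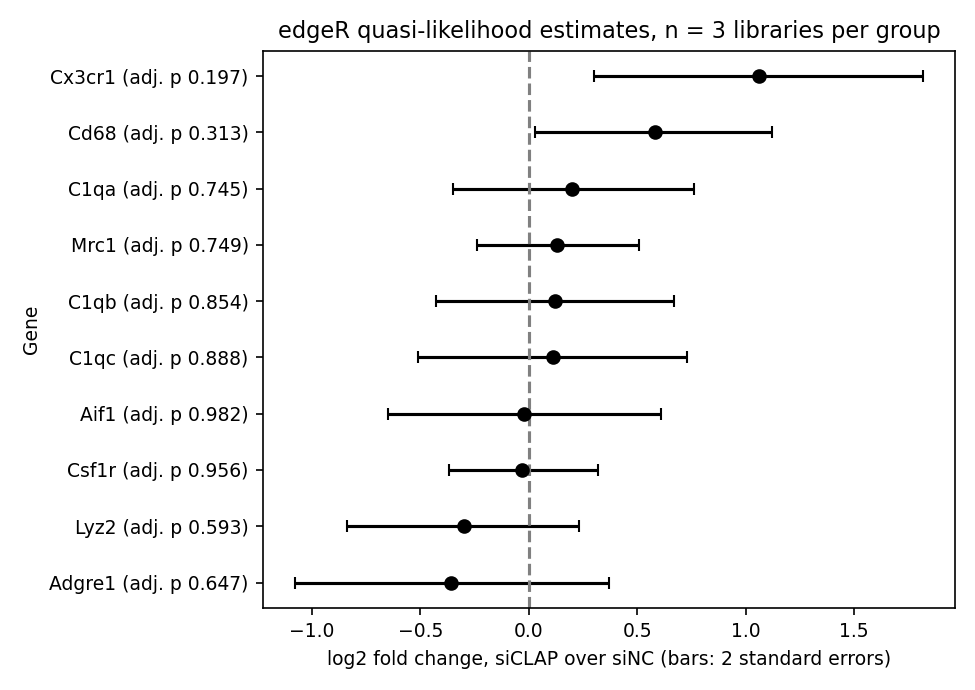
Log2 fold change of each marker, siCLAP over siNC, from edgeR's quasi-likelihood fit, with bars of 2 standard errors (n = 3 libraries per group) and the adjusted p beside each name. The estimates lie between −0.36 (Adgre1) and 1.06 (Cx3cr1), and no adjusted p is below 0.197.

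The receptors come first. Csf1r (chr18:61100598-61132149, plus strand, mm10), the receptor tyrosine kinase on which macrophages depend, had 5.79, 8.98 and 5.43 TPM in the siCLAP libraries, against 6.94, 5.93 and 7.97 TPM in the siNC libraries. siCLAP-2 was the highest library, the other two siCLAP libraries were below all siNC libraries, and the groups overlapped. The log2 fold change of Csf1r was −0.03 ± 0.17 SE (2-SE interval −0.37 to 0.32, edgeR adjusted p = 0.956). Exons of Csf1r share bases with Hmgxb3 on the opposite strand, which was at 18 to 21.2 TPM in siCLAP and 20.1 to 23.1 TPM in siNC, and the library kit does not mark strand.

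Cx3cr1 (chr9:119901616-120069879, minus strand, mm10), the receptor for the neuronal chemokine fractalkine, had 1.58, 2.83 and 1.01 TPM in the siCLAP libraries, against 1.14, 0.480 and 1.08 TPM in the siNC libraries. The siCLAP libraries 1 and 2 were above all siNC libraries, siCLAP-3 was inside the siNC range, and siNC-2 was the lowest of the 6. Cx3cr1 had the largest estimate of the 10, at 1.06 ± 0.38 on the log2 scale (2-SE interval 0.30 to 1.82), with an unadjusted p of 0.0175 and an adjusted p of 0.197. The estimate of Cx3cr1 was 0.62 without siCLAP-2 and 0.69 without siNC-2. Its adjusted p ran from 0.0131 to 0.631 over the alternative analyses, passing only when no filter on low values was used (0.0131), and DESeq2 gave it no adjusted p. Counts of Cx3cr1 were low, at 43.0 to 107 in siCLAP and 32.0 to 57.5 in siNC, and its exons share bases with an annotated gene on the opposite strand, Gm33858, which was not used here.

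Microglia of the spinal cord also express Cx3cr1. Of 10 microglia genes, 3 reached the level for testing and 0 passed, with a median log2 fold change of 0.19. Their summed level was 23.6 to 29.4 TPM in siCLAP and 23.5 to 28.0 TPM in siNC. Most of this sum was 1 gene, Olfml3, at 15.4 to 19.2 TPM in siCLAP and 16.3 to 19.3 TPM in siNC. P2ry12, a purinergic receptor of microglia, was at 5.71, 5.70 and 5.51 TPM in siCLAP, against 5.11, 4.39 and 5.27 TPM in siNC (log2 fold change 0.22 ± 0.11, adjusted p = 0.341). The defining microglia genes Tmem119 (0.562 to 0.665 TPM in siCLAP, 0.402 to 1.26 TPM in siNC) and Sall1 (0.0189 to 0.0945 TPM in siCLAP, 0.0107 to 0.187 TPM in siNC) were below the level for testing, and Tmem119 was above Cx3cr1 in siNC-1 (1.17 TPM) and siNC-3 (1.26 TPM). The part of microglial RNA in the Cx3cr1 level was not tested.

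None of the ligands of these receptors passed the test. Csf1 was at 14.9, 16.6 and 14.7 TPM in siCLAP, against 14.4, 13.4 and 16.2 TPM in siNC (log2 fold change 0.10 ± 0.08, adjusted p = 0.569). Il34, the second ligand of Csf1r, averaged 30.9 TPM in siCLAP and 31.1 TPM in siNC (0.01 ± 0.07, adjusted p = 0.973). Cx3cl1, which encodes fractalkine, averaged 4.56 TPM in siCLAP and 4.69 TPM in siNC (−0.03 ± 0.13, adjusted p = 0.934). Of 10 growth factor and chemokine ligands 8 were tested and 0 passed, with a median of −0.01. The monocyte chemoattractants Ccl7 and Ccl12 stood at 0.68 ± 0.53 and −0.47 ± 0.43, and Tgfb1, a growth factor that acts on macrophages, at 0.22 ± 0.13.

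Among the surface and lysosomal markers the estimates had both signs and none passed. Adgre1 (chr17:57358691-57483527, plus strand, mm10), which encodes the F4/80 antigen, had 0.671, 1.68 and 0.504 TPM in siCLAP, against 1.40, 1.06 and 1.11 TPM in siNC. siCLAP-2 was above and the other two siCLAP libraries below all siNC libraries, and the spread was wider in siCLAP (0.953 ± 0.638 TPM) than in siNC (1.19 ± 0.185 TPM; mean ± SD, n = 3 each). The log2 fold change of Adgre1 was −0.36 ± 0.36 (adjusted p = 0.647), and between −0.55 and −0.06 over 17 alternatives, nearest 0 without siCLAP-3.

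Mrc1 (chr2:14229392-14332057, plus strand, mm10), the mannose receptor of resident and perivascular macrophages, had 2.85, 4.73 and 2.89 TPM in siCLAP, against 3.52, 2.74 and 3.35 TPM in siNC. Apart from siCLAP-2, all libraries lay between 2.74 and 3.52 TPM, and the log2 fold change was 0.13 ± 0.19 (adjusted p = 0.749). Aif1 (chr17:35170991-35176068, minus strand, mm10), which encodes the cytoskeletal protein Iba1, had 1.38, 3.29 and 2.22 TPM in siCLAP, against 1.96, 2.22 and 2.81 TPM in siNC. The siCLAP libraries held both the lowest and the highest Aif1 value, and the log2 fold change was −0.02 ± 0.32 (2-SE interval −0.65 to 0.61, adjusted p = 0.982).

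Cd68 (chr11:69664213-69666153, minus strand, mm10), a lysosomal membrane glycoprotein of phagocytes, had 4.57, 5.10 and 3.19 TPM in siCLAP, against 2.67, 2.08 and 4.59 TPM in siNC. The 3 siCLAP libraries were above siNC-1 and siNC-2, and siNC-3 was inside the siCLAP range. The estimate of Cd68 was 0.58 ± 0.27 on the log2 scale, a 1.49-fold ratio, with an unadjusted p of 0.0588 and an adjusted p of 0.313. It lay between 0.34 (without siNC-2) and 0.88 (without siNC-3) over the alternatives. Of 10 further lysosomal and phagocytic genes, all tested, 0 passed and the median was −0.01. Gpnmb, a glycoprotein of lipid-laden phagocytes, was at 3.27, 3.32 and 3.19 TPM in siCLAP, against 5.81, 4.29 and 6.30 TPM in siNC (−0.71 ± 0.14, adjusted p = 0.0591, from 7.58e-04 to 0.299 over the alternatives). Gpnmb passed in 4 of 19 alternatives. The tetraspanin Cd63 stood at 0.16 ± 0.07 (adjusted p = 0.276).

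Lyz2 (chr10:117277331-117282321, minus strand, mm10), the lysozyme of macrophages and neutrophils, had 37.3, 52.5 and 21.6 TPM in siCLAP, against 53.9, 31.6 and 55.1 TPM in siNC. Unlike the other 9 markers it was highest in siNC-3, just above siNC-1, and its log2 fold change was −0.30 ± 0.27 (2-SE interval −0.84 to 0.23, adjusted p = 0.593). Leaving out siCLAP-2 gave −0.62 for Lyz2 and leaving out siCLAP-3 gave −0.03, and the estimate stayed negative in all 20 alternatives. Its close paralog Lyz1 was at 1.22 to 1.70 TPM in siCLAP and 0.778 to 1.49 TPM in siNC, and how reads matching both were counted is not given in the sources used here. Of 11 neutrophil genes 3 were tested and 0 passed, with a median of −1.43. Their summed level was 3.48, 0.434 and 1.09 TPM in siCLAP, against 3.86, 4.07 and 10.3 TPM in siNC. The groups did not overlap in this sum, by a narrow margin between siCLAP-1 and siNC-1. They did not overlap for 2 of the 3 genes, against 21.5% of all genes tested. S100a9, a neutrophil calcium-binding protein, was at 1.14, 0.190 and 0.506 TPM in siCLAP, against 1.43, 1.18 and 5.75 TPM in siNC (−1.75 ± 0.73, adjusted p = 0.258). Ngp, a neutrophil granule protein, stood at −1.43 ± 0.50 (adjusted p = 0.194), and S100a8 (−1.24 ± 0.71) was listed at 0 in siCLAP-2, as was Ly6g, a surface marker of neutrophils, in siCLAP-2, siNC-1 and siNC-2. Expected counts were very low, at 0 to 9 in siCLAP and 6 to 14.5 in siNC for S100a8. They were 1 to 9 in siCLAP and 10 to 24.5 in siNC for S100a9, and 3 to 15 and 17.5 to 25 for Ngp. The part of neutrophil RNA in the Lyz2 level was not tested.

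The 3 C1q genes lie side by side on the minus strand of mouse chromosome 4 (mm10), C1qb at chr4:136880129-136886187, C1qc at chr4:136889804-136893065 and C1qa at chr4:136895917-136898803, and none shares exon bases with another annotated gene. C1qa had 17.1, 26 and 11.2 TPM in siCLAP, against 17, 10.8 and 20.8 TPM in siNC (log2 fold change 0.20 ± 0.28, adjusted p = 0.745). C1qb had 13.3, 23.2 and 10.9 TPM in siCLAP, against 17, 9.62 and 17.9 TPM in siNC (0.12 ± 0.28, adjusted p = 0.854). C1qc had 12, 17.8 and 7.42 TPM in siCLAP, against 13, 7.02 and 15.8 TPM in siNC (0.11 ± 0.31, adjusted p = 0.888). In all 3 genes siCLAP-2 was the highest library and siNC-2 the lowest, with a low library in each group (siCLAP-3 and siNC-2). The 3 estimates turned negative without siCLAP-2, at −0.13, −0.24 and −0.22.

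The proportions of the C1q chains varied less between libraries than the levels did. The ratio of C1qa to C1qb on the TPM scale was 1.29, 1.12 and 1.02 in siCLAP, against 1.0, 1.13 and 1.16 in siNC. The ratio of C1qc to C1qb was 0.909, 0.766 and 0.679 in siCLAP, against 0.765, 0.729 and 0.882 in siNC. Between the lowest and the highest library these ratios differed by 1.29-fold and 1.34-fold, while the levels of the single chains differed by 2.39-fold to 2.51-fold in CPM, counts scaled to library size. Of 8 further genes of the classical pathway and C1q binding, all tested, 0 passed, with a median of 0.07. The C1 proteases C1ra and C1s1 stood at 0.34 ± 0.23 and 0.37 ± 0.22, C3 at 0.45 ± 0.32, and calreticulin (Calr), which binds C1q, at −0.13 ± 0.05 (adjusted p = 0.196). C1s1 was at 3.52, 4.97 and 2.57 TPM in siCLAP, against 3.13, 2.27 and 3.36 TPM in siNC, again highest in siCLAP-2 and lowest in siNC-2.

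Most of the 10 markers varied together from library to library, across both groups. Each gene's log2(CPM + 0.5), using TMM-normalised CPM, was set against its own mean over the 6 libraries. The mean deviation over the 10 genes was −0.06, 0.55 and −0.37 in the siCLAP libraries, against 0.06, −0.38 and 0.20 in the siNC libraries. All 10 markers were above their own mean in siCLAP-2 and 9 in siNC-3, whereas 0 were in siCLAP-3 and 1 in siNC-2. Of the 45 pairs of markers all 45 had a positive Pearson correlation over the 6 libraries, with a median of 0.77 and a range of 0.08 (Cd68 with Adgre1) to 0.99, and a positive one was also found for 50% of all pairs of genes tested. The lowest after Cd68 with Adgre1 were Aif1 with Cd68 (0.28) and with Cx3cr1 (0.30). In each correlation the values of a pair come from the same library and share its depth and normalisation. C1qa and C1qb followed the mean of the other 9 most closely (r = 0.98 each) and Aif1 least (0.51), the gene with the fewest counts.

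The spread between libraries was larger than for most genes. The SD of log2(CPM + 0.5) over the 6 libraries had a median of 0.443 over the markers, from 0.256 for Aif1 to 0.640 for Cx3cr1. Over the 9049 tested genes with a mean count in the same range the median was 0.145. The added 0.5 lowers this SD most for genes of low CPM. Aif1, at 0.461 to 1.11 CPM, differed 2.4-fold between its lowest and highest library, as did C1qb, whose SD was 0.434. For C1qa the counting error at its mean count was 6.70%, beside a coefficient of variation in TPM of 41.1% in siCLAP and 30.9% in siNC. For Aif1 it was 20.2%, beside 41.8% in siCLAP and 18.7% in siNC. The median log2 fold change of the markers was −0.22 without siCLAP-2 (9 tested), the library highest for 9 of 10, and −0.084 without siNC-2, the lowest for 6.

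**Figure D3:**
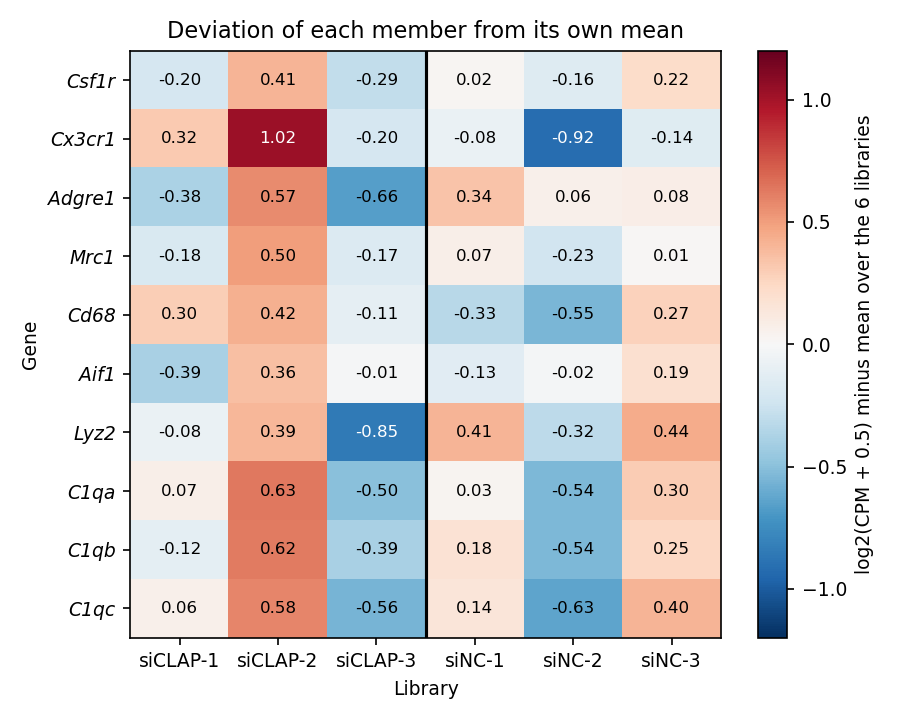
Deviation of each marker from its own mean over the 6 libraries, in log2(CPM + 0.5), with the siCLAP libraries left of the line and the siNC libraries right of it. The siCLAP-2 column is positive for all 10 genes and the siCLAP-3 column negative for all 10, with differences inside each group as large as those between groups.

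The genes most like the markers were taken by the highest Pearson correlation, over the 6 libraries, with the mean log2 level of the 10, among 13810 other genes at a mean of 5 TPM or more. Laptm5, a lysosomal membrane protein of blood-derived cells, came first (r = 0.989), at 5.27, 9.76 and 3.72 TPM in siCLAP, against 6.78, 3.51 and 6.70 TPM in siNC. The others were Rnase4, a secreted ribonuclease (0.989), Tor1aip2 (0.986), Crispld2 (0.984), AB344750 (0.982), Blzf1 (0.982), Dcn (0.975) and Alg6 (0.960). Dcn encodes decorin, a proteoglycan of connective tissue fibroblasts, and was at 314, 405 and 242 TPM in siCLAP, against 338, 245 and 330 TPM in siNC. These correlations were the highest of many, by construction, and are given as a description.

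**Figure D4:**
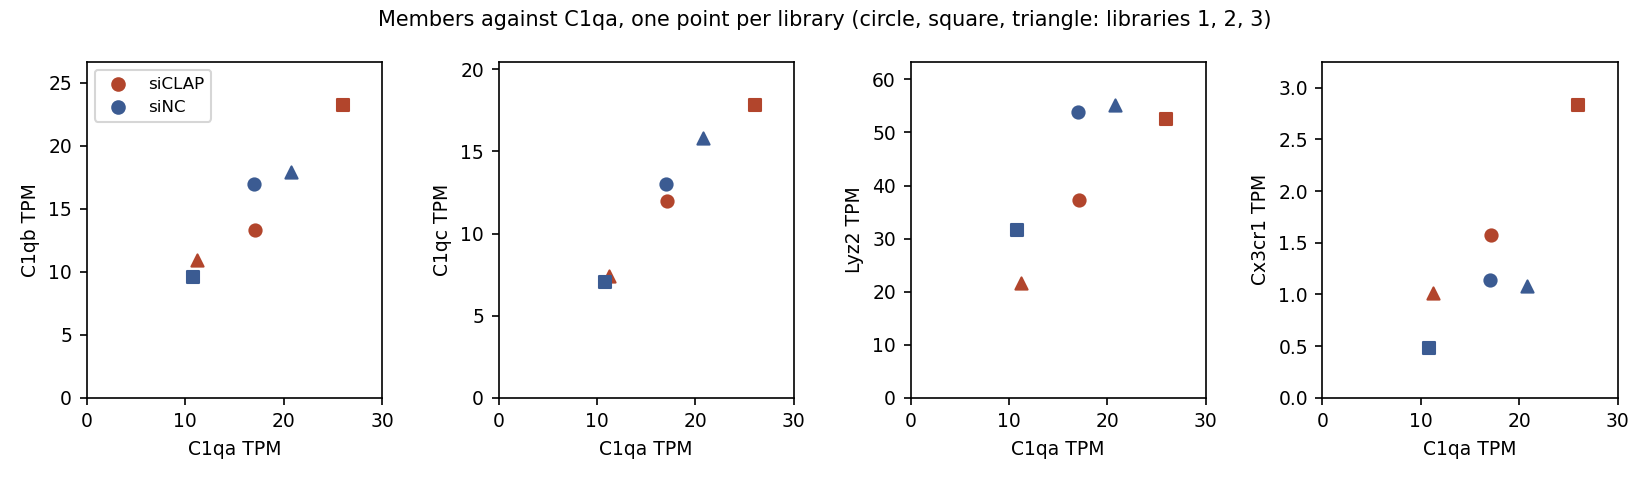
TPM of C1qb, C1qc, Lyz2 and Cx3cr1 (linear axes from 0) against TPM of C1qa, one point per library, siCLAP in red and siNC in blue. C1qb and C1qc lie along one line through both groups, while for Lyz2 the siNC points and for Cx3cr1 the siCLAP points lie higher at the same C1qa level.

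Ratios between markers within a library remove the shared level. Relative to C1qa, Lyz2 was 2.18, 2.02 and 1.93 in siCLAP, against 3.17, 2.91 and 2.65 in siNC. Relative to Csf1r, Cx3cr1 was 0.273, 0.315 and 0.187 in siCLAP, against 0.165, 0.0810 and 0.136 in siNC. In both ratios the groups did not overlap. With any one library left out the log2 difference stayed between −0.57 and −0.45 for Lyz2 to C1qa and between 0.76 and 1.27 for Cx3cr1 to Csf1r. Both ratios were unplanned and come from those whose groups separate, so these values are a description and lend no support. Of all 45 ratios between markers 11 had groups that did not overlap (24.4%), and Cx3cr1, Lyz2 or both were part of each of them. The same held for 20.0% of the ratios between all pairs of genes tested, so the share among the markers was near that of the background. At 3 libraries per group the smallest p that an exact permutation test of one ratio allows is 0.1.

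Other macrophage genes also gave no call in the main test. Of 25 further pan-macrophage genes 21 were tested and 0 passed (median 0.01), with mean deviations of −0.15, 0.37 and −0.30 in the siCLAP libraries, against −0.01, −0.25 and 0.34 in the siNC libraries. Mertk, a receptor for apoptotic cells that glia also express, came closest, at 6.41, 7.68 and 10.2 TPM in siCLAP, against 12.2, 17.4 and 16.8 TPM in siNC. The groups of Mertk did not overlap, as was found for 21.5% of all genes tested. Its log2 fold change was −0.92 ± 0.17 (adjusted p = 0.0557, from 7.42e-07 to 0.271 over the alternatives, passing in 6 of 20). Ly86, an accessory protein of a Toll-like receptor relative, stood at −0.37 ± 0.10 (adjusted p = 0.0984, from 5.93e-04 to 0.383 over the alternatives, passing in 3 of 20), the Fc receptor gene Fcgr3 at −0.44 ± 0.24 and the lysosomal protease gene Lgmn at 0.08 ± 0.05. Ly86 averaged 225 TPM in siCLAP and 295 TPM in siNC and Lgmn 482 TPM in siCLAP and 462 TPM in siNC, each above the sum of the 10 markers in every library, while Ptprc, the leukocyte surface phosphatase CD45, averaged 1.10 TPM in siCLAP and 0.968 TPM in siNC. Which cells the Ly86 and Lgmn transcripts came from was not tested.

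Among transcription factors of the myeloid lineage 9 of 10 were tested and 0 passed (median 0.04). Spi1 (PU.1) was at 0.913, 2.93 and 1.43 TPM in siCLAP, against 0.955, 0.719 and 2.09 TPM in siNC, again highest in siCLAP-2 and lowest in siNC-2 (0.59 ± 0.45, adjusted p = 0.531). The estimate of Spi1 was 0.03 without siCLAP-2 and 1.04 without siNC-3. Maf, Irf5 and Cebpa stood at 0.11 ± 0.05, −0.23 ± 0.13 and −0.22 ± 0.13. Of 14 genes of resident and perivascular macrophages 9 were tested and 0 passed (median 0.09). The chemokine gene Ccl8 was at 2.79, 2.33 and 0.519 TPM in siCLAP, against 0.877, 0.330 and 0.482 TPM in siNC (1.81 ± 0.62, adjusted p = 0.184, from 0.0476 to 0.62 over the alternatives). Its expected counts were very low, at 21.5, 12 and 3 in siCLAP, against 6, 3 and 2 in siNC. Cd163, a haemoglobin scavenger receptor, Lyve1, a hyaluronan receptor, and Gas6, a ligand of Mertk, stood at −0.35 ± 0.16, 0.26 ± 0.12 and 0.09 ± 0.04.

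Genes of other blood and vessel cells were mostly low. All 8 T and NK cell genes were below the level for testing, as were 5 of 6 B cell genes, and 4 of 8 monocyte genes were tested with 0 passing (median −0.26). The monocyte list deviated by 0.85 in siNC-3, against −0.47 to 0.08 in the other 5 libraries. Fn1, fibronectin, which monocytes and other cells make, stood at −0.89 ± 0.39 and Vcan at −0.26 ± 0.15. Of 7 mast cell genes 6 were tested and 0 passed (median −0.24). Kit stood at −0.18 ± 0.05 and the tryptase gene Tpsb2 at −1.06 ± 0.32 (edgeR adjusted p = 0.11 and 0.14). Kit was not low, at 49.9 to 54.2 TPM in siCLAP and 57.9 to 59.9 TPM in siNC. Which cells the Kit transcripts came from was not tested. Of 8 dendritic cell genes 2 and of 6 lymphatic endothelial genes 2 were tested, with 0 passing in either list. Among them Flt3, of the dendritic list, averaged 15.6 TPM over the 6 libraries and Pdpn, of the lymphatic list, 20.9 TPM.

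Genes of the cells around the macrophages varied less between libraries. The 8 satellite glia genes deviated by at most 0.12 in either direction and the 8 sensory neuron genes by at most 0.06, and their median log2 fold changes were 0.12 and 0.10. The endothelin receptor gene Ednrb, which satellite glia express, rose to 84.5, 82.3 and 69.3 TPM in siCLAP, against 57.9, 59.5 and 57.1 TPM in siNC, with no overlap (0.45 ± 0.07, adjusted p = 0.0317). Its call was lost in 8 of 20 alternatives (adjusted p from 3.24e-07 to 0.205), among them without siCLAP-1 (0.192), siCLAP-2 (0.0660), siNC-1 (0.0800) or siNC-3 (0.165). It was the 1 gene that passed among the 105 tested genes of 19 of the lists, the interferon, MHC class II, leptomeningeal and erythroid lists not counted. Over all genes tested 56 of 19141 passed (0.293%), and 21.5% had groups that did not overlap. Fabp7, a fatty acid binding protein of satellite glia, stood at 0.38 ± 0.07, and the neuronal genes Isl1 and Avil at 0.16 ± 0.05 and −0.14 ± 0.05 (adjusted p = 0.0560, 0.134 and 0.163). Fabp7 passed in 7 of 20 alternatives (adjusted p from 1.47e-04 to 0.223). In their mean deviation the siCLAP libraries were all above the siNC libraries for both lists.

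Libraries with high macrophage markers were in part those with high type I interferon genes. The summed level of 12 interferon response genes was 644, 1060 and 690 TPM in siCLAP, against 660, 657 and 1010 TPM in siNC, highest in siCLAP-2 and siNC-3, the libraries with the highest mean marker deviation. None of the 12 passed (median 0.01), and siNC-1, next after these in the markers, was not high for them. With siCLAP-2 and siNC-3 both left out, 0 of 9 tested markers passed and the median was −0.101. MHC class II genes, which antigen-presenting macrophages express, followed another pattern, with a summed level over 7 genes of 66.5, 96.8 and 70.2 TPM in siCLAP, against 165, 114 and 128 TPM in siNC, where the groups did not overlap. Of the 7 MHC class II genes 1 passed, H2-Eb1, at 8.58, 11.6 and 10.4 TPM in siCLAP, against 23.1, 16.7 and 16.6 TPM in siNC (−0.88 ± 0.15, edgeR adjusted p = 0.0409). All 7 estimates were negative, with a median of −0.86. An unadjusted edgeR p under 0.05 was found for 5 of the 7, against 17.0% of all genes tested. The groups did not overlap for 5, against 21.5% of all genes tested. The call of H2-Eb1 was lost in 8 of 20 alternatives (adjusted p from 6.47e-06 to 0.223), among them without siCLAP-1 (0.223), siNC-1 (0.0883) or siNC-3 (0.105), and with the replicate number as a block (0.0501). Leptomeningeal genes, which mark the membranes around the roots, summed to 24.3, 15 and 10.6 TPM in siCLAP, against 116, 28.9 and 137 TPM in siNC, with 7 of 9 tested, 0 passing and a median of −1.78, and here too the groups did not overlap. An unadjusted edgeR p under 0.05 was found for 6 of these 7, and the groups did not overlap for 4. Most of the sum in each siNC library was Ptgds, at 90.3, 19.3 and 91.7 TPM. Ptgds was at 13.5, 6.67 and 3.63 TPM in siCLAP (edgeR adjusted p = 0.056). Erythroid genes, a measure of blood in the tissue, summed to 25.2, 8.32 and 13.2 TPM in siCLAP, against 55.3, 9.57 and 32.6 TPM in siNC (4 of 5 tested, 0 passing, median −0.87). Of the tested erythroid genes, Hba-a1 and Hba-a2 had equal expected counts in every library and are not separate measurements. The leptomeningeal and erythroid lists were highest in siNC-1 and siNC-3 and the markers in siCLAP-2. Within siNC, siNC-2 was the lowest library for both lists and for the markers. The part of interferon signalling, attached membrane or blood in the marker levels was not tested.

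**Figure D5:**
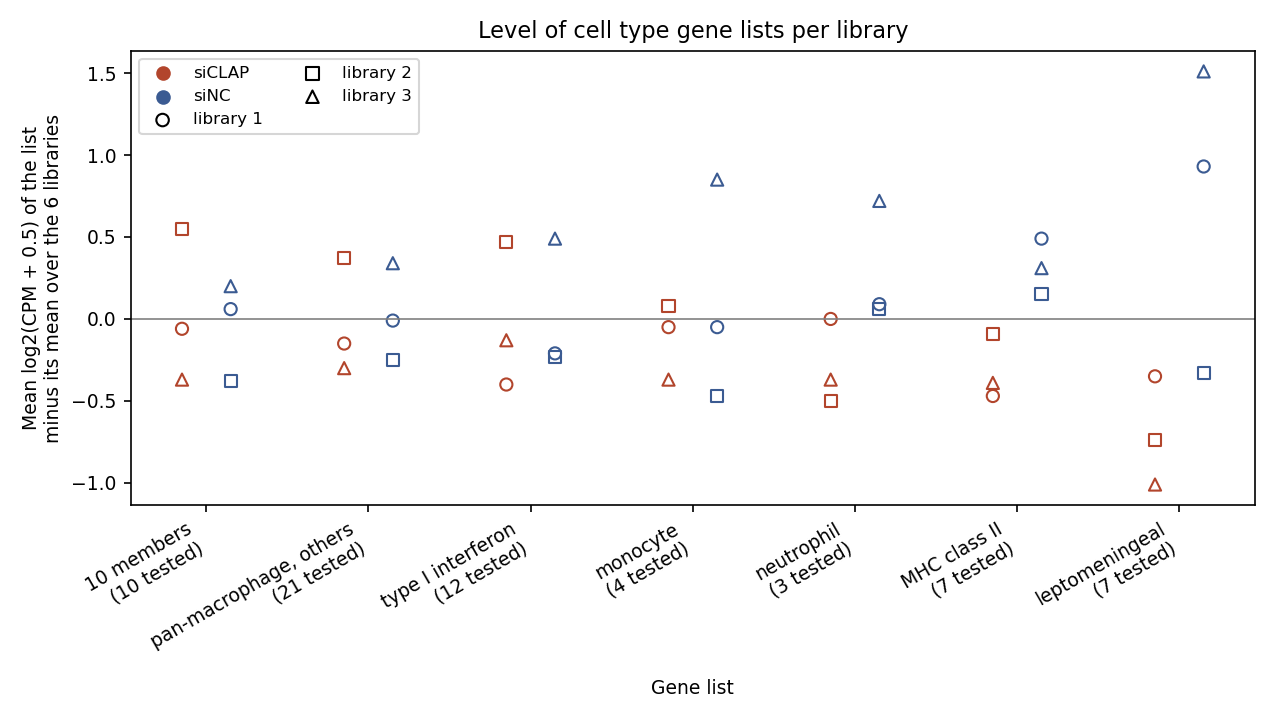
Mean log2(CPM + 0.5) of each gene list in each library, relative to its mean over the 6 libraries, siCLAP left and siNC right within each list. The 10 markers and the other pan-macrophage genes overlap between groups with siCLAP-2 highest. The type I interferon and monocyte lists overlap with siNC-3 highest. For the MHC class II, leptomeningeal and neutrophil lists the siCLAP libraries are all below the siNC libraries. The margin is narrow for the leptomeningeal list (siCLAP-1 at −0.35, siNC-2 at −0.33). It is also narrow for the neutrophil list of 3 tested genes (siCLAP-1 at 0, siNC-2 at 0.06).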

How the data were processed

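Per the labels' protocols, total RNA of L4/5 DRG went into NEBNext Ultra libraries, 3 per group. The submitters' processing notes list FastQC 0.11.8, HISAT2 2.1.0, featureCounts 1.6.2 and build mm10. The sources used here give no annotation, strand setting or rule for multiply matching reads. The authors deposited a TPM value and an expected count per gene symbol, and 66.5% of the deposited expected counts were whole within 1e-06.

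Expected counts were rounded and tested by edgeR 4.0.16 under R 4.3.3 (quasi-likelihood F-test), with TMM normalization and no covariate, over 19141 genes whose TPM averaged 1 or more, and p-values were Benjamini-Hochberg adjusted over them. Standard errors were derived from the fold change and F statistic. The scripts were tested on simulated counts. Libraries of one group differed by more than counting noise (mean chi-square per gene of at least 4.27). A floor of 3 counts is 0.0652 to 0.140 CPM. Alternatives used DESeq2 1.42.0, limma 3.58.1, other filters and scalings, the replicate number as a block, and libraries left out.

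The markers and lists were chosen with earlier results of these data known, and the interferon, MHC class II, leptomeningeal and erythroid lists were added later. Named genes were the 10 markers, Csf1, Il34, Cx3cl1, Spi1, the 8 genes most like the markers, and up to 4 tested genes of each list with the smallest p, of which part is named. Sall1, Tmem119, C1s1's library values, H2-Eb1, Ptgds, Hba-a1, Hba-a2, Ly6g, Ptprc, Hmgxb3 and Lyz1 were chosen after their values were seen. Gene positions came from GENCODE M21 (mm10).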

Additional observations from a re-analysis of the deposited data

How the results depend on the processing

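The count of markers that passed was 1 (Cx3cr1) with no filter on low values and 0 in the other 19 alternatives, of which DESeq2 gave 6 markers an adjusted p and a mean TPM of at least 5 left 5 to test. Among the related lists, 1 gene passed in the main test, 7 with no filter, 6 with DESeq2, 3 each with a mean TPM of at least 5, robust dispersion or the replicate block, 0 with limma on log2(TPM + 0.5), log2(TPM + 0.1) or log2(TPM + 1) (14, 13 and 13 before adjustment), 0 with siNC-3 and siCLAP-2 both left out (15 before adjustment), and 0 to 4 with one library left out. Over all genes 56 passed, against 835 with no filter, 608 with DESeq2, 118 at a mean TPM of at least 5, 133 with robust dispersion, 203 with the replicate block, 0 with each limma fit on TPM (3028, 3017 and 3040 before adjustment), 13 with the same 2 libraries left out, and 0 (without siCLAP-1, 1956 before adjustment) to 336 (without siCLAP-3) with one library left out.

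Same-numbered libraries correlated at 0.13, 0.03 and −0.06 in their deviations from the group means, and siCLAP-1 alone of the siCLAP libraries correlated best with its own number. The main test took the libraries to share only a number. With 3 libraries per group this check cannot exclude a pairing. With the replicate number as a block the test called 203 genes, 3 in the related lists and 0 markers, and lost H2-Eb1 (adjusted p = 0.0501).

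With one library left out, log2 fold changes ran from −0.36 to 0.28 for Aif1, −0.28 to 0.10 for Csf1r, −0.13 to 0.45 for C1qa, −0.24 to 0.32 for C1qb, −0.22 to 0.37 for C1qc, −0.14 to 0.26 for Mrc1, −0.04 to 0.07 for Il34, −0.12 to 0.10 for Cx3cl1 and −0.61 to 0.70 for Cxcl10. Of 943 recomputed values of single genes 28 changed sign. Without siCLAP-1 these were Aif1 (0.28), Csf1r (0.07), Il34 (−0.03), Cx3cl1 (0.01) and Cxcl10 (0.09). Without siCLAP-2 they were C1qa (−0.13), C1qb (−0.24), C1qc (−0.22), Mrc1 (−0.14) and Cx3cl1 (0.01), and without siCLAP-3 Csf1r (0.10). Without siNC-1 it was Cx3cl1 (0.10), without siNC-2 C1qa (−0.03), C1qb (−0.13), C1qc (−0.19) and Il34 (−0.04), and without siNC-3 Aif1 (0.09), Csf1r (0.07), Il34 (−0.01) and Cxcl10 (0.70). Without siNC-3 and siCLAP-2 they were C1qb (−0.10), Mrc1 (−0.10) and Cxcl10 (0.24). With limma voom Cxcl10 was 0.12, and Il34 was −0.01 with each limma fit on TPM and 0.00 at a mean TPM of at least 5. The cause was not tested. Genes that did not pass in the main test but did in some alternatives also included Fn1 (2), Kit (1) and Ngp (1). The lowest counts were those of Aif1 and Adgre1, under 61 in each library.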

Other observations

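Genes of macrophage activation states were mostly at or below 1 TPM in these ganglia. Of 10 inflammatory macrophage products, Cxcl10, an interferon-induced chemokine, was the 1 that reached the level for testing, at 6.77, 16.3 and 8.08 TPM in siCLAP, against 6.39, 6.27 and 24.1 TPM in siNC (log2 fold change −0.15 ± 0.48, edgeR adjusted p = 0.901). It was highest in siNC-3 and siCLAP-2, the libraries in which the interferon response genes were also highest. Of 8 alternative activation genes 2 were tested and 0 passed, with Mgl2, a lectin of alternatively activated macrophages, at 0.506, 1.40 and 1.09 TPM in siCLAP, against 2.19, 0.744 and 1.45 TPM in siNC (−0.55 ± 0.44, adjusted p = 0.551). The other tested gene, Tgfbi, was not low. It was at 26.7, 34 and 16.8 TPM in siCLAP, against 40.5, 20.9 and 31.2 TPM in siNC (−0.23 ± 0.24, edgeR adjusted p = 0.661). Of 6 cell cycle genes 1 was tested and 0 passed.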
